A study of Mus musculus with 10 samples.

Results

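The genes described here make fatty acids and join them to glycerol as triglyceride: Acly, Acaca, Fasn, Thrsp, Elovl6, Scd1, Scd2, Srebf1, Dgat1 and Dgat2. They were chosen by name, and all 10 were found among the 55487 distinct genes of the count table. The RNA was that of mouse RPE/choroid complex, which joins the pigmented epithelium under the retina to its underlying blood supply. The 5 ADQ samples came from iDTR mice with Adiponectin-Cre given diphtheria toxin intraperitoneally each day for 7 weeks, and the 5 control samples came from iDTR mice without Cre that also received the toxin. The iDTR allele, an HBEGF cassette at ROSA26 on C57BL/6, makes cells sensitive to the toxin after Cre has acted. The adiponectin promoter drives Cre in fat cells throughout the body. The labels give neither age nor sex, and do not state how long control mice were treated or whether every sample is its own animal. The p-values therefore speak of variation among these 10 samples, some of which may be technical.

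Fatty acid synthesis starts from citrate, which ATP citrate lyase (Acly) splits to acetyl-CoA. Acetyl-CoA carboxylase (Acaca) makes malonyl-CoA, fatty acid synthase (Fasn) builds palmitate, Elovl6 lengthens it and the stearoyl-CoA desaturases (Scd1, Scd2) put in a double bond. DGAT enzymes (Dgat1, Dgat2) add the last acyl chain to diacylglycerol, and SREBP-1, the product of Srebf1, is a transcription factor that turns on much of this set. The pathway is best known from liver and fat, and the pigment epithelium handles large amounts of lipid because it takes up shed photoreceptor membranes every day.

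Libraries held 43591245 to 64087660 counts in ADQ and 47997064 to 50974422 in control. Summed RPE markers (8 genes, such as Rpe65 and Rlbp1, all detected) ran from 28185 to 42845 CPM in ADQ and from 33022 to 48174 CPM in control, where CPM is a gene's count scaled to the size of its library with a TMM correction. Of 12 marker lists, 3 had group means more than 1.5-fold apart. Summed adipocyte markers (14 of 14 detected) ran from 93.2 to 130.4 CPM in ADQ, against 95.5 to 262 CPM in control, with control 5 the lowest control. Rod photoreceptor markers (6 of 6 detected) ran from 292 to 3296 CPM in ADQ and from 289 to 1628 CPM in control. Surface epithelium markers (6 of 6 detected) ran from 0.650 to 1.74 CPM in ADQ and from 2.21 to 2069 CPM in control. ADQ 5 was highest in rod markers and lowest in skeletal muscle markers, at 299 CPM. The means of the remaining lists in ADQ were 0.726 times (skeletal muscle) to 1.11 times (erythroid) those in control. In bulk tissue, fewer cells of a type and less RNA per cell cannot be told apart.

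**Figure D1:**
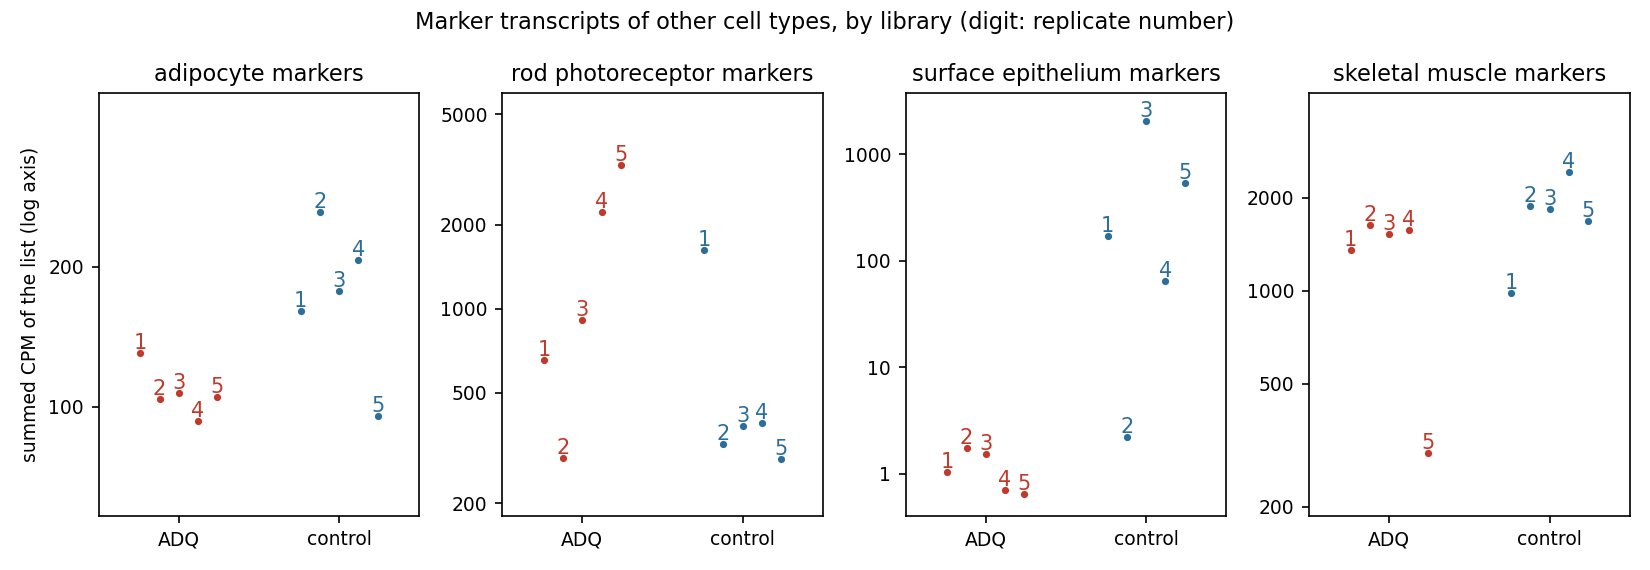
Summed CPM of 4 marker lists in each library on log axes, ADQ left and control right, each point labelled with its replicate number. Adipocyte markers lie at 93.2 to 130.4 CPM in ADQ and 95.5 to 262 CPM in control, where control 5 is lowest, and ADQ 5 is apart in muscle markers at 299 CPM.

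The main comparison asks whether transcripts of this pathway differed in the RPE/choroid complex after ablation of fat cells. No gene of the set passed. Of the 10 genes, 0 were called with edgeR's quasi-likelihood test at an adjusted p under 0.05 over all 20684 genes tested, where 0.827% of genes were called (0.74% higher and 0.087% lower in ADQ). At an unadjusted p under 0.05 there were 2, Elovl6 and Acaca, both lower in ADQ, while 13.8% of all genes tested were under that p and 5.85% were under it and lower. DESeq2 and voom with quality weights also called 0 of the 10, where they called 3.65% and 3.21% of all genes, and had 2 and 3 at an unadjusted p under 0.05. That count was 4 without ADQ 1 or without control 3, and 1 without ADQ 2, ADQ 3, ADQ 4 or control 4. The share of all genes at that p was counted for the main edgeR fit alone, not for any other fit. All 10 had enough counts to be tested, from 246 to 27372 per library. Log2 fold changes, ADQ over control, ran from -0.29 to 0.25 with 5 above 0 and 5 below, and their median was 0.05 beside 0.01 for all genes tested. With libraries scaled by their size alone, 6 were above 0, since Srebf1 changed sign, and 0 were at an unadjusted p under 0.05.

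Size limits can be given even though nothing passed. The 95% intervals of the 10 fold changes reached from 0.662 at the lowest to 1.73 at the highest, so for each gene a difference of 2-fold in either direction lay outside its interval. On the log2 scale Scd1 had the widest interval, 0.818- to 1.73-fold, and those of Dgat1 (0.783- to 1.01-fold), Srebf1 (0.875- to 1.13-fold) and Elovl6 (0.711- to 0.937-fold) were among the narrowest. Leaving out each library in turn gave log2 fold changes of 0.08 to 0.21 for Fasn, 0.14 to 0.35 for Acly, 0.08 to 0.42 for Scd1, 0.13 to 0.30 for Scd2, 0.02 to 0.20 for Dgat2 and -0.35 to -0.04 for Thrsp, so single libraries moved these 6 values by more than 1.5 times.

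**Figure D2:**
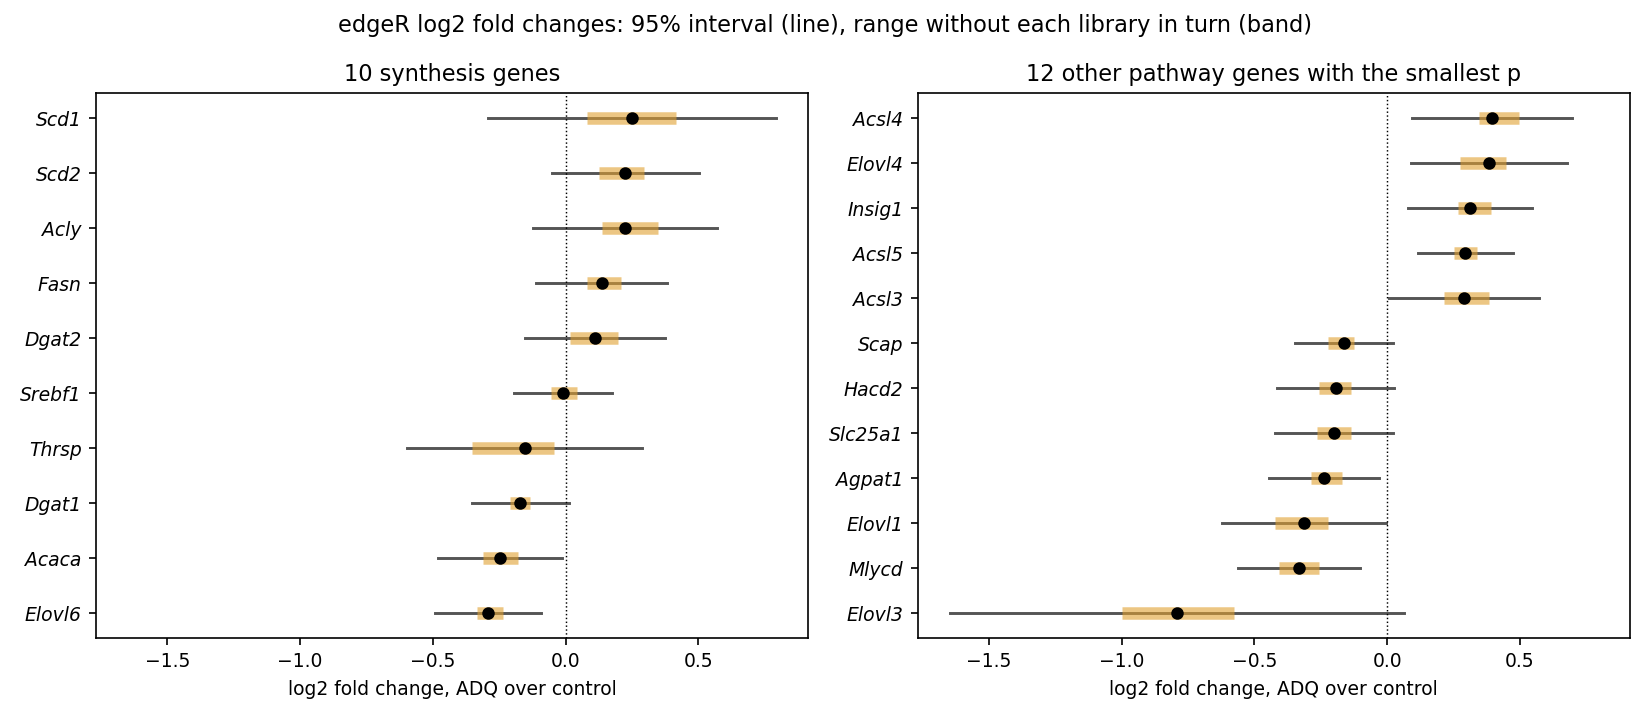
Log2 fold change (ADQ over control) of the 10 synthesis genes on the left and of 12 other pathway genes on the right, as points with 95% intervals (lines) and the range obtained when each library was left out in turn (bands). Among the 10 genes the intervals of Elovl6 and Acaca lie below 0, and the bands of all but Srebf1 stay on their side of 0.

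Carbon supply and chain building came first in the pathway. Acly (chromosome 11, 100476353 to 100528000, minus strand) had 72.3, 97.6, 110, 97.9 and 123 CPM in ADQ 1 to 5, against 73.4, 92.8, 114, 84.3 and 64.6 CPM in control 1 to 5. The groups overlapped almost fully, with ADQ 5 highest of all libraries and control 5 lowest. Acly had a log2 fold change of 0.22 (SE 0.16, 0.919- to 1.49-fold, edgeR adjusted p = 0.540).

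Acaca (chromosome 11, 84129672 to 84401651, plus strand) makes the malonyl-CoA that Fasn uses. It had 24.1, 22.0, 24.1, 22.9 and 25.9 CPM in ADQ, against 26.6, 25.9, 32.3, 33.6 and 23.0 CPM in control. ADQ libraries lay close together around the lowest controls, and control 3 and 4 were above all others. The log2 fold change was -0.25 (SE 0.11, 0.717- to 0.991-fold, edgeR adjusted p = 0.336). Of the distinct 50-base windows in annotated Acaca transcripts, 30.4% also occur in transcripts of other genes, nearly all in Gm5182, so how reads were shared between them is uncertain. Gm5182 was at 1.15 to 1.83 CPM in ADQ and 0.631 to 1.38 CPM in control, small beside Acaca.

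Fasn (chromosome 11, 120805846 to 120824547, minus strand) had 94.7, 85.6, 108, 97.4 and 112 CPM in ADQ, against 85.7, 76.0, 103, 109 and 79.8 CPM in control. Both groups spanned nearly the same range. Its log2 fold change was 0.14 (SE 0.11, 0.926- to 1.30-fold, edgeR adjusted p = 0.605), the opposite sign to that of Acaca.

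Thrsp (chromosome 7, 97412938 to 97417730, minus strand), also called Spot 14, encodes a small nuclear protein induced with lipid synthesis in liver and fat. It was the least abundant of the 10 by CPM, with 9.48, 6.32, 6.43, 5.41 and 11.9 CPM in ADQ and 8.71, 8.13, 9.03, 10.8 and 7.40 CPM in control. ADQ libraries were split, since ADQ 1 and 5 were high and ADQ 2 to 4 lay below every control. The mean was 7.92 ± 2.73 CPM in ADQ and 8.82 ± 1.28 CPM in control (SD, n = 5 each), with a log2 fold change of -0.15 (SE 0.21, edgeR adjusted p = 0.759). It was -0.35 without ADQ 5, -0.04 without ADQ 4 and -0.38 with voom.

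Elongation gave the difference with the smallest p of the set. Elovl6 (chromosome 3, 129532355 to 129638495, plus strand) had 39.5, 30.1, 35.7, 39.2 and 34.2 CPM in ADQ, against 40.6, 41.3, 49.1, 44.4 and 43.5 CPM in control. The groups did not overlap, though the highest ADQ library was only slightly under the lowest control. Among all genes tested, 3.16% had groups that did not overlap and 1.07% did so with ADQ lower; Elovl6 was the 1 gene of the 10 to do so. The log2 fold change was -0.29 (SE 0.09, 0.711- to 0.937-fold), and the edgeR adjusted p of 0.183 did not pass. Leaving out each library in turn kept it between -0.33 and -0.24, with an adjusted p of 0.107 to 0.361, and over all 20 alternatives the adjusted p was 0.0719 to 0.366. Control libraries also held more surface epithelium marker RNA (0.650 to 1.74 CPM in ADQ, 2.21 to 2069 CPM in control). Apart from control 5, at 95.5 CPM, they held more adipocyte marker RNA (up to 130.4 CPM in ADQ, 160.6 CPM or more in control 1 to 4). Elovl6 in control 5, where Adipoq had 0 counts, was 43.5 CPM, near the control mean of 43.8 ± 3.34 CPM (SD, n = 5). The part of surface epithelium or adipocyte RNA in the Elovl6 difference was not tested, and a single library cannot test it. Of the Elovl6 transcript windows, 3.98% occur in other genes, most of them in Gm11295. Gm11295 was at 0.0391 to 0.286 CPM in ADQ and 0.0780 to 0.395 CPM in control.

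**Figure D3:**
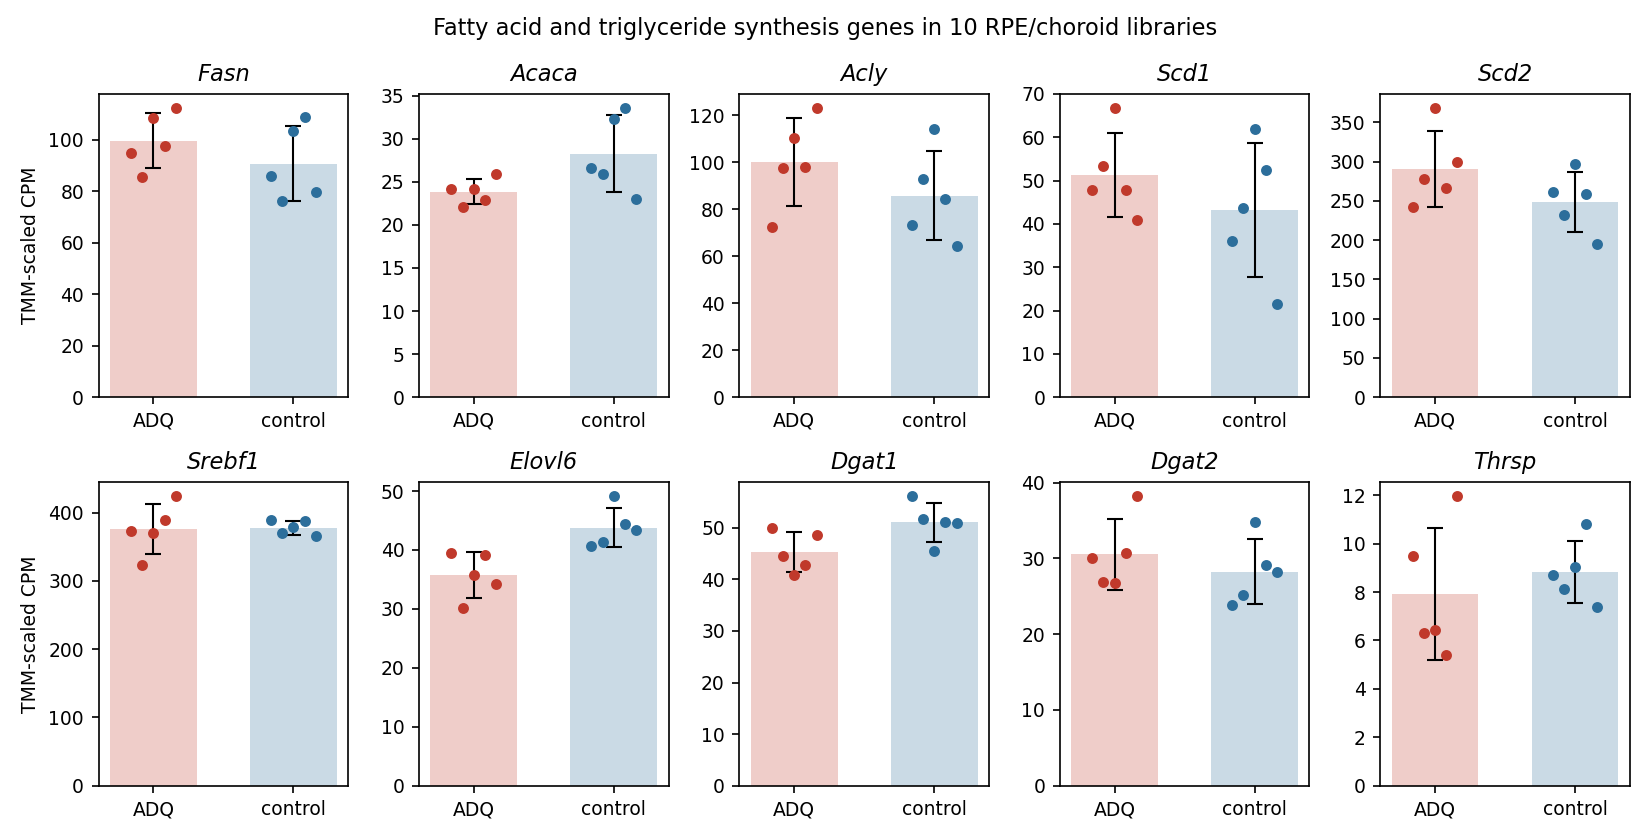
TMM-scaled CPM of the 10 genes, 1 panel per gene, ADQ left and control right, with 1 point per library, bars for the group mean and error bars for 1 SD (n = 5). The groups overlap in 9 panels, and for Elovl6 the ADQ points, up to 39.5 CPM, lie under all controls, from 40.6 CPM.

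Desaturation enzymes had higher means in ADQ but wide spreads. Scd1 (chromosome 19, 44394455 to 44407879, minus strand), the desaturase typical of liver and fat, had 47.8, 53.4, 66.8, 47.9 and 40.9 CPM in ADQ, against 36.1, 43.6, 61.9, 52.5 and 21.5 CPM in control. Control 5 was the lowest of all libraries, and the other controls fell within or near the ADQ range. Scd1 had a log2 fold change of 0.25 (SE 0.25, edgeR adjusted p = 0.665), and it was 0.08 without control 5.

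Scd2 (chromosome 19, 44293674 to 44306864, plus strand), the form prominent in brain and myelin, had 243, 278, 368, 266 and 299 CPM in ADQ, against 261, 232, 297, 259 and 195 CPM in control. ADQ 3 was highest and control 5 lowest, and the remaining libraries overlapped. For Scd2 it was 0.23 (SE 0.13, 0.965- to 1.42-fold, edgeR adjusted p = 0.447). Schwann cell and myelin markers summed to 525 to 630 CPM in ADQ and 487 to 1140 CPM in control. Control 4, at 1140 CPM, had 259 CPM of Scd2, near the control mean of 249 ± 37.8 CPM (SD, n = 5). The part of myelin RNA in the Scd2 values was not tested, and a single library cannot test it.

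Scd1 and Scd2 are close paralogs on chromosome 19, and 4.56% of Scd1 and 3.97% of Scd2 transcript windows occur in other genes of the family or elsewhere. Within a library, the Scd2 count was 5.08 to 7.32 times that of Scd1 in ADQ and 4.79 to 9.06 times in control, with control 5 the highest. The remaining members of the family were scarce. Scd3 was at 1.19 to 2.21 CPM in ADQ and 0.970 to 2.24 CPM in control, and Scd4 at 0.196 to 0.681 CPM in ADQ and 0.194 to 0.457 CPM in control.

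The transcription factor gene had closely matched means. Srebf1 (chromosome 11, 60199089 to 60222581, minus strand) had 373, 323, 371, 389 and 424 CPM in ADQ, against 389, 369, 378, 387 and 366 CPM in control. Controls lay within a narrow band, while ADQ 2 was below it and ADQ 5 above it. The mean was 376 ± 36.4 CPM in ADQ and 378 ± 10.3 CPM in control (SD, n = 5 each), with a log2 fold change of -0.01 (SE 0.09, edgeR adjusted p = 0.973). Srebf1 shares 1.93% of its exon bases with Rai1 on the opposite strand, and whether counting used strand is not given in the sources used here. Counts per gene do not separate its SREBP-1a and SREBP-1c transcripts, and messenger RNA does not show how much of the protein is cleaved to its active form.

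Triglyceride assembly closed the pathway with the 2 unrelated enzymes that carry out its last step. Dgat1 (chromosome 15, 76502015 to 76511953, minus strand) had 49.9, 44.5, 40.9, 42.7 and 48.6 CPM in ADQ, against 56.1, 51.8, 45.4, 51.1 and 50.9 CPM in control. Only control 3 lay within the ADQ range, and the other controls were above it. The log2 fold change was -0.17 (SE 0.08, 0.783- to 1.01-fold, edgeR adjusted p = 0.390).

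Dgat2 (chromosome 7, 99153658 to 99182719, minus strand) had 30.1, 26.9, 26.8, 30.7 and 38.2 CPM in ADQ, against 23.9, 25.2, 34.9, 29.1 and 28.2 CPM in control. The groups overlapped, with ADQ 5 and control 3 highest in their groups. For Dgat2 it was 0.11 (SE 0.12, 0.900- to 1.30-fold, edgeR adjusted p = 0.702), and 0.02 without ADQ 5. Within a library the ratio of Dgat1 to Dgat2 counts was 1.27 to 1.66 in ADQ and 1.30 to 2.35 in control.

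The promoters of Fasn, Acly and Elovl6 are shown because these genes act in sequence in the pathway, and the log2 fold change of Elovl6 was below 0 while those of Fasn and Acly were above 0; none passed. RefSeq promoter windows on GRCm38.p6, from 250 bases before to 50 after an annotated start, were found for 6 of the 10 genes (Fasn, Acaca, Acly, Srebf1, Elovl6 and Thrsp), 8 windows in all. Each was searched on both strands. The core of a sterol regulatory element, the site bound by SREBP, was spelled TCACNCCAC and is present in 1.24% of all 32851 windows of this length. The E-box, which SREBP-1 and other factors bind, was spelled CACGTG and is present in 7.15% of windows. A CCAAT box is present in 37.4% of windows. The GC box, spelled GGGCGG, is present in 35.7% of windows. Capitals mark the matches. The windows lie at chr11:120824498-120824797 (Fasn, minus strand), chr11:100527951-100528250 (Acly, minus strand) and chr3:129532136-129532435 (Elovl6, plus strand).
Fasn: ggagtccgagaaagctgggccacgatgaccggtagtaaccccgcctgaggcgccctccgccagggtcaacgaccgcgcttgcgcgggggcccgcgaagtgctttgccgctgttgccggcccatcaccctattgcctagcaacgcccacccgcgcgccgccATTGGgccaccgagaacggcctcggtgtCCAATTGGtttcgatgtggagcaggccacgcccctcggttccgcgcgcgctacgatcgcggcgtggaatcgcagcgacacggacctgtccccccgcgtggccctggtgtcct
Acly: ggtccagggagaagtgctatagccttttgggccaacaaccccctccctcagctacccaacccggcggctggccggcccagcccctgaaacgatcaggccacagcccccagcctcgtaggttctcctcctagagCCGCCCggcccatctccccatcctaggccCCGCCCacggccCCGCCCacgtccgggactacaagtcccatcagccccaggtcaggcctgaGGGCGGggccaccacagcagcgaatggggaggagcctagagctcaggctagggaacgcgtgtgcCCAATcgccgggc
Elovl6: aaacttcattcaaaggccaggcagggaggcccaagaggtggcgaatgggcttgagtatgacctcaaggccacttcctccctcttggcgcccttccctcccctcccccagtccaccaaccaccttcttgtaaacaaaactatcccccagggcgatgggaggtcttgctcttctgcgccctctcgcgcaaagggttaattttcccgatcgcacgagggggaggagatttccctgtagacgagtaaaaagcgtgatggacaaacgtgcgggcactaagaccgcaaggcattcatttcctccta
The Fasn window held CCAAT boxes at -90, -62 and -59 from the start, the last 2 on opposite strands and overlapping. The Acly window held 4 GC boxes, between -117 and -27, and a CCAAT box at 37 after the start. The Elovl6 window held none of these letters, nor did that of Acaca, and no window of the 6 genes held the sterol regulatory element core or E-box as spelled. The Acaca window, at chr11:84195188-84195487, lies inside the annotated gene, which begins at 84129672, so sequence before the first start was not searched. The Thrsp window held CCAAT boxes at -79 and -52.

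Levels can be set side by side only after scaling for length, here as CPM per kilobase of all annotated exons of a gene. Srebf1 was highest, at 66.7 ± 6.47 in ADQ and 67.1 ± 1.82 in control, followed by Scd2 at 53.2 ± 8.77 in ADQ and 45.5 ± 6.92 in control (CPM per kb, SD, n = 5 each). A gap separated these from Acly, whose libraries ran from 12.2 to 23.3 CPM per kb. Dgat1 (13.4 to 18.4), Scd1 (4.397 to 13.6), Dgat2 (7.74 to 12.4), Fasn (6.95 to 10.3) and Elovl6 (4.68 to 7.63) followed, and then Thrsp (2.47 to 5.46, all in CPM per kb over the 10 libraries). Neighbours in this order overlapped except at the gaps between Scd2 and Acly and between Thrsp and Acaca, the lowest at 1.29 to 1.97 CPM per kb. Exons of all annotated transcripts are counted in the length, 17.1 kb for Acaca against 2.19 kb for Thrsp, so a gene whose transcripts differ in length is scaled too low.

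**Figure D4:**
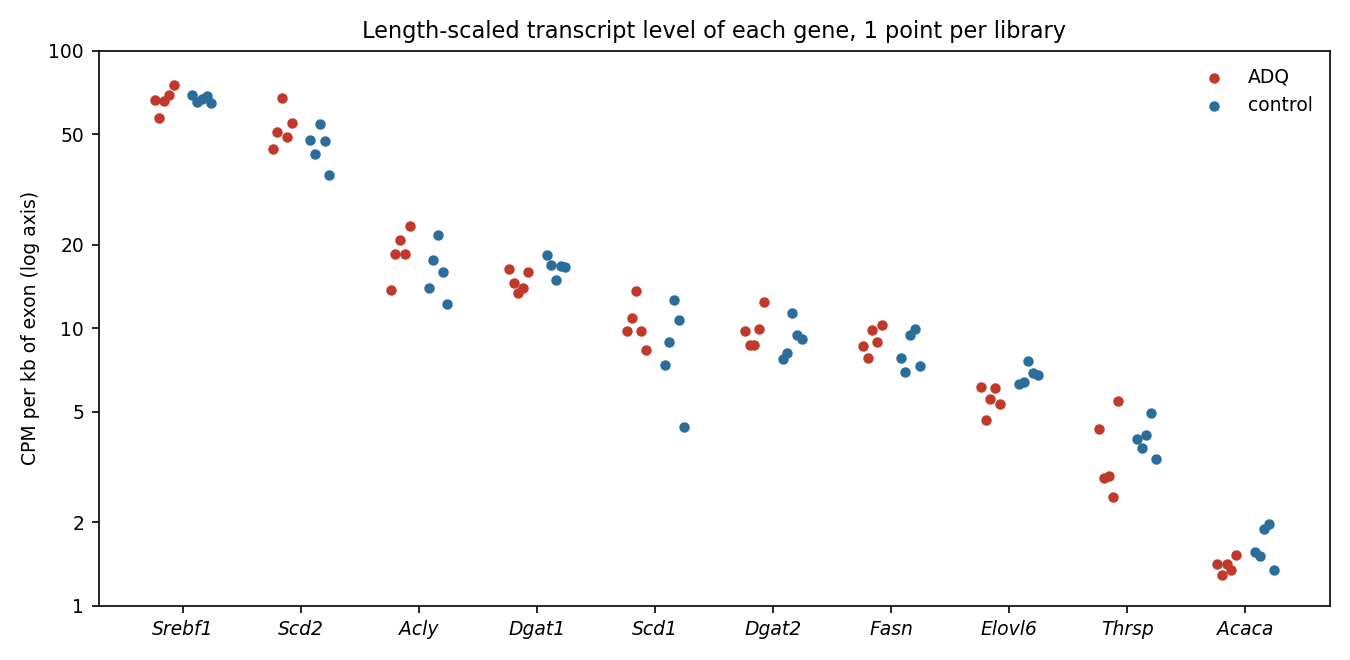
CPM per kb of exon (log axis) for the 10 genes, ordered by their median over 10 libraries, with ADQ points left and control points right for each gene. Srebf1 and Scd2 lie above 35 CPM per kb in every library, and Acaca lies below 2 CPM per kb.

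High and low values fell repeatedly in the same libraries. ADQ 5 was the highest ADQ library for 6 of the 10 genes (Fasn, Acaca, Acly, Srebf1, Dgat2 and Thrsp), and control 5 was the lowest control for 6 (Acaca, Acly, Scd1, Scd2, Srebf1 and Thrsp). Control 3 was the highest control for 5 (Acly, Scd1, Scd2, Elovl6 and Dgat2) and also had the most surface epithelium markers, 2069 CPM. With control 5 and ADQ 5 both left out, 0 of the 10 genes were called, where 365 of all 20725 genes tested were called. In that fit 3 of the 10 were at an unadjusted p under 0.05, with the share of all genes at that p not counted. The part of other cell types in these shifts was not tested.

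The remaining genes of the pathway were read in the same way. Of 60 other genes of acetyl-CoA supply, elongation, desaturation, activation, glycerolipid assembly and their regulation, 59 were tested and 0 were called with edgeR. At an unadjusted p under 0.05 there were 8, or 13.6%, close to the 13.8% of all genes; 5 of these were higher and 3 lower in ADQ. Their median log2 fold change was -0.03. DESeq2 called 1 of them, Acsl5, or 1.69%, against 3.65% of all genes. Voom with quality weights called 2, Acsl5 and Mlycd, or 3.39%, against 3.21% of all genes.

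The acyl-CoA synthetases, which activate free fatty acids for use, were the role whose genes all lay on the same side. All 5 tested had log2 fold changes above 0, with a median of 0.29 beside 0.01 for all genes. Of all 20684 genes tested, 10724 were above 0. The role was singled out after its values were seen, so no shift of the role is claimed. Those of Acsl1 and Acsl6 were small, 0.03 (edgeR adjusted p = 0.928) and 0.10 (edgeR adjusted p = 0.616). Acsl5 had 50.4, 54.1, 57.3, 55.1 and 51.8 CPM in ADQ, against 41.2, 42.9, 46.9, 38.7 and 49.2 CPM in control, so the groups did not overlap (log2 fold change 0.30, SE 0.08, edgeR adjusted p = 0.133). It was the 1 gene of the 59 to do so, or 1.69%, against 3.16% of all genes. Acsl4, which prefers arachidonate, was at 14.1 ± 2.38 CPM in ADQ and 10.7 ± 1.38 CPM in control (SD, n = 5; log2 fold change 0.40, edgeR adjusted p = 0.240), and Acsl3 had a log2 fold change of 0.29 (edgeR adjusted p = 0.348).

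Malonyl-CoA decarboxylase (Mlycd), which removes the product of Acaca, had 85.1, 70.9, 55.5, 67.6 and 72.8 CPM in ADQ, against 99.8, 91.2, 79.6, 86.6 and 85.5 CPM in control. ADQ 1 alone reached into the control range. The log2 fold change was -0.33 (SE 0.11, edgeR adjusted p = 0.192). Insig1, which holds SREBP in the endoplasmic reticulum and is itself an SREBP target, was at 34.8 ± 3.68 CPM in ADQ and 28.0 ± 3.86 CPM in control (SD, n = 5; log2 fold change 0.31, edgeR adjusted p = 0.230). Scap, which escorts SREBP to the Golgi, was at 189 ± 19.1 CPM in ADQ and 212 ± 10.2 CPM in control (SD, n = 5; log2 fold change -0.16, edgeR adjusted p = 0.410).

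Elongases beside Elovl6 pointed both ways. Elovl4, which makes the very long chains of photoreceptors, was at 46.5 ± 8.37 CPM in ADQ and 35.6 ± 5.84 CPM in control (SD, n = 5; log2 fold change 0.39, edgeR adjusted p = 0.241). Its highest library was ADQ 5, at 60.1 CPM, and its lowest control 5, at 26.6 CPM. These were also the libraries with the most and the fewest rod markers, 3296 and 289 CPM. ADQ 4 was next highest in both, at 2218 CPM of rod markers and 48.3 CPM of Elovl4. The remaining libraries did not all follow this order. ADQ 2, with 292 CPM of rod markers, had 43.4 CPM of Elovl4, and control 1, with 1628 CPM, had 40.2 CPM. The part of photoreceptor RNA in the Elovl4 difference was not tested. Elovl1 had a log2 fold change of -0.31 (edgeR adjusted p = 0.358) and Hacd2, a dehydratase of the elongation cycle, one of -0.19 (edgeR adjusted p = 0.410). Elovl3 was scarce, at 0.240 ± 0.0866 CPM in ADQ and 0.419 ± 0.158 CPM in control (SD, n = 5; edgeR adjusted p = 0.393). Agpat1, an acyltransferase of glycerolipid assembly, had a log2 fold change of -0.24 (edgeR adjusted p = 0.306), and Slc25a1, the mitochondrial citrate carrier, one of -0.20 (edgeR adjusted p = 0.403).

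The authors' deposited table, which holds values of the same 10 libraries, gave the same reading for the 10 genes and not for all of the others. Of the 10 genes, 0 were called in the authors' deposited table at an adjusted p under 0.05, where 5.42% of its 15860 genes were (1.63% lower in ADQ), and 3 were at an unadjusted p under 0.05. How many of all its genes were at that unadjusted p was not counted. The smallest adjusted p-values there were 0.0821 for Dgat1 and 0.0911 for Elovl6, with log2 fold changes of -0.21 and -0.26 in the authors' deposited table. Of the 57 other pathway genes it lists, the authors' deposited table called 5, or 8.77%. Acsl5, Insig1, Acsl4 and Elovl4 were higher and Mlycd lower in ADQ, with adjusted p-values from 0.0150 to 0.0473 in the authors' deposited table.

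Fat cell transcripts in the same libraries are set beside the 10 genes, because fat tissue also makes fatty acids and triglyceride. Adipoq, which encodes adiponectin, had 8 to 77 counts in ADQ, against 177 to 402 in control 1 to 4 and 0 in control 5, which allows up to 3 counts. The deletion of fat cells is not tested by this count alone, since the tissue is not fat. Cfd (adipsin) had 7.27, 1.98, 6.20, 1.30 and 4.04 CPM in ADQ, against 32.8 to 75.2 CPM in control 1 to 4 and 2.66 CPM in control 5. Cidec, whose product coats lipid droplets in adipocytes, averaged 0.919 ± 0.503 CPM in ADQ and 4.91 ± 3.28 CPM in control (SD, n = 5). Control 5 held 0.416 CPM of Cidec, within the ADQ range of 0.308 to 1.37 CPM. The 3 most abundant adipocyte markers in ADQ are also expressed by other cells and had means close together. Lipe was at 32.0 ± 5.09 CPM in ADQ and 33.8 ± 1.78 CPM in control, Fabp4 at 26.0 ± 3.51 CPM in ADQ and 28.8 ± 6.07 CPM in control, and Pparg at 20.9 ± 1.84 CPM in ADQ and 19.2 ± 2.29 CPM in control (SD, n = 5 each). None of Adipoq, Cfd, Cidec and Plin1 passed over all genes with edgeR, with adjusted p-values of 0.369, 0.143, 0.168 and 0.258, and Lep had too few counts to be tested, with 1 to 10 per library in ADQ and 0 to 39 in control. DESeq2 called Cfd (adjusted p = 0.00114) and Cidec (adjusted p = 0.0217), and edgeR without robust estimation called Cfd (adjusted p = 0.0424). Of all 20684 genes, DESeq2 called 755, or 3.65%, and edgeR without robust estimation 202. Without control 5 all 4 passed with edgeR, at adjusted p-values of 0.00523 to 0.0286, where 357 of all 21048 genes tested passed. Control 5 is the control with the least fat RNA, so leaving it out widens the difference by itself. Without control 5 the log2 fold changes of the 10 genes were 0.08 for Scd1, 0.09 for Fasn, 0.11 for Dgat2, 0.14 for Acly and 0.15 for Scd2, all above 0. They were -0.02 for Srebf1, -0.17 for Dgat1, -0.21 for Thrsp, -0.30 for Elovl6 and -0.31 for Acaca, all below 0, and 0 of the 10 passed.

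The genes closest to a member in pattern were found by Pearson correlation of log2 CPM over the 10 libraries, after each group's mean was taken out. The 3 protein-coding genes closest to Elovl6 were Slk, Ift88 and Rab11fip1 (r from 0.868 to 0.879), and those closest to Acaca were Bpgm, Rbms2 and E2f1 (r from 0.914 to 0.941). Scd1 was closest to Cysltr1, Bmper and Sync (r from 0.962 to 0.977), and Scd2 to Pphln1, Manea and Coa5 (r from 0.959 to 0.977). These are descriptions over 10 libraries of unequal depth, picked as the highest of many correlations.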

How the data were processed

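RNA-seq of 10 RPE/choroid samples was analysed from 2 deposited tables. Per the labels' protocols, RNA was extracted with TRIzol and NucleoSpin columns, and SMARTer amplified the cDNA. The submitters' processing notes name GRCm38, bcl2fastq, DRAGEN, edgeR and limma without versions or roles; how reads were counted, strand included, is not stated there. One deposited file has raw counts by Ensembl gene, and 287 repeated entries were dropped from it. The authors' deposited table gives, per the file headers, log2 CPM of each library with p-values, the log2 fold change and a signed fold score; its log2 fold changes and p-values are quoted as theirs.

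Groups and replicate numbers came from sample titles. Counts were tested with edgeR 4.0.16 (R 4.3.3, limma 3.58.1): 20684 genes passed filterByExpr (count 10, total 15), TMM factors scaled the libraries, and p-values of a robust quasi-likelihood fit on group were adjusted by Benjamini-Hochberg at 0.05 over all genes. Fold changes are ADQ over control; SE is the log2 fold change's size divided by the root of F, and 95% intervals use the fit's degrees of freedom. The 20 alternatives include DESeq2 1.42.0 and limma voom, other scalings and filters, a replicate block and each library left out. The fit was tested on simulated data. Amplified reads carry no molecular identifiers, so the 3-count limit of a 0 covers counting error only. Positions, exon lengths and 50-base windows come from GENCODE on GRCm38, and promoters from RefSeq on GRCm38.p6. Members and lists were chosen with earlier results of these data known. Named genes were all 10 members, the 12 other pathway genes with the smallest p, 5 adipocyte genes, the marker lists whose means differed more than 1.5-fold, and 3 genes most alike for the 4 members with the largest fold changes; Scd3, Scd4, Acsl1, Acsl6, Lipe, Fabp4, Pparg and the gene models sharing sequence with a member were named after their values were seen.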

Additional observations from a re-analysis of the deposited data

Results flagged for a closer look

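A single library stood far from the other 4 in 8 of 78 groups looked at. Chance alone gives about 1 in 20 for independent values with a normal spread. These groups share libraries and some are skewed, so no excess over chance is claimed for the 8. None of the 10 synthesis genes was among them. Agpat1 was low in control 3, at 43.8 CPM against 51.5 to 52.4 CPM in the other controls. Plin1 was low in ADQ 2, at 0.528 CPM against 1.07 to 1.21 CPM. Lep was high in control 2, at 0.770 CPM against at most 0.0229 CPM. Rod markers were high in control 1, at 1628 summed CPM against 289 to 389, and Schwann cell and myelin markers in control 4, at 1140 summed CPM against 487 to 543. Control 3 was high in meibomian and sebaceous gland markers, at 5.85 summed CPM against 3.48 to 4.08, and in surface epithelium markers, at 2069 summed CPM against 2.21 to 540. Skeletal muscle markers were low in ADQ 5, at 299 summed CPM against 1360 to 1633.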

How the results depend on the processing

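The count of called genes among the 10 was 0 under all 20 alternatives. Srebf1 alone changed sign, to log2 fold changes of 0.0755 with library size alone, and to 0.0416 without ADQ 2 and 0.0055 without control 1 (-0.0552 to 0.0416 without each library), and the cause was not tested. Among the 59 other pathway genes tested, DESeq2 called 1, voom with quality weights 2 and the replicate block 2 (Insig1 and Mlycd), against 0 in the main fit. These counts are to be read beside those over all 20684 genes tested. That count was 171 in the main fit, and moved to 755 with DESeq2, 664 with voom and 694 with the replicate block. It was 78 to 357 without each library in turn (81 without ADQ 2, 99 without ADQ 3, 87 without ADQ 4, 96 without control 1, 78 without control 4 and 357 without control 5), and 365 without control 5 and ADQ 5, a choice made after seeing the data. Of the 171 calls of the main fit 89.5% were higher in ADQ, against 67.5% with DESeq2, 77.0% with voom, 79.7% with a non-robust fit and 56.5% with the replicate block. Same-numbered samples were not treated as paired in the main fit, and the labels do not state a pairing. Their deviations from the group means correlated at -0.11 to 0.16, and 1 of 5 ADQ libraries correlated best with its own number. Low correlations over all genes cannot exclude a pairing. With the replicate block 5 of the 10 genes were at an unadjusted p under 0.05, against 2. The share of all genes at that p was not counted with the replicate block, which called 694 genes against 171. Every library held at least 246 counts of each of the 10 genes.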

Other observations

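The ratio of Elovl6 to Fasn within a library, chosen after the values were seen, does not depend on how libraries are scaled. It was 0.417, 0.351, 0.330, 0.402 and 0.304 in ADQ 1 to 5, against 0.474, 0.543, 0.475, 0.409 and 0.545 in control 1 to 5. ADQ 1 lay just above control 4, and the other ADQ libraries were below every control. No test was made of it, since it was picked for its difference.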
